A study of Rattus norvegicus with 352 samples.

Results

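The haemoglobin genes described here are the alpha globins Hba-a1 and Hba-a2 and the beta globins Hbb, Hbb-bs, Hbb-b2 and Hbbl1. They were chosen by name, because an earlier look at the same data had shown their large spread between libraries, and make up 6 of the 38354 genes in the table. PolyA RNA was sequenced from frozen brain hemispheres of naive, untreated rats of the heterogeneous stock, which is outbred and goes back to several inbred founder strains. The labels give a single group, so the comparisons are between libraries of this group. Whether each library is a separate animal is not written in the labels, so p-values measure only the spread between libraries. Strain background, age and sex are not given per library in the labels used here, and genotypes were not analysed.

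Haemoglobin carries oxygen in red blood cells. Each molecule joins alpha-type and beta-type chains, every chain holding a haem group, and the chains come from an alpha cluster and a beta cluster on different chromosomes. Genes within each cluster arose by duplication and are turned on in turn from embryo to adult. Rats carry several adult beta globin copies, and inbred rat strains are known to differ in the beta globins they make. In brain, globin RNA is commonly read as coming from red cells left in the vessels, and low globin expression in neurons has also been described.

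The alpha members lie on chromosome 10 (Hba-a1 at chr10:15841724-15842580, Hba-a2 at chr10:15828291-15829138) and the beta members on chromosome 1 (Hbb at chr1:167662310-167663721, Hbb-b2 at chr1:167655583-167656963, Hbbl1 at chr1:167648859-167650235 and Hbb-bs at chr1:167630245-167631630), all on the minus strand of the assembly GRCr8. The sequences upstream of their starts are shown because the counts below differ sharply between beta copies whose starts are nearly alike in sequence. All 6 members were found in the RefSeq promoter table of GRCr8. Each line gives the 120 bases before the start, written 5′ to 3′ along the gene, with capitals marking, on either strand, the letters CACCC, the letters of the CCAAT box, and the letters TATAAA of the TATA box or, where given, their variant CATAAA.
Hba-a1, chr10:15842581-15842700, minus strand: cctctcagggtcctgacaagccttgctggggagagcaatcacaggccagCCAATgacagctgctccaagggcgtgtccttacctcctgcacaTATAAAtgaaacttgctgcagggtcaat
Hba-a2, chr10:15829139-15829258, minus strand: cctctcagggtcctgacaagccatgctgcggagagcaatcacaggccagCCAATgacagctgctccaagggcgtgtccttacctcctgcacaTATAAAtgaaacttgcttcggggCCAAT
Hbb, chr1:167663722-167663841, minus strand: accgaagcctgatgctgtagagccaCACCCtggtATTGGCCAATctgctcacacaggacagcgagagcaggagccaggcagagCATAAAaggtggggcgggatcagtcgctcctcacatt
Hbb-b2, chr1:167656964-167657083, minus strand: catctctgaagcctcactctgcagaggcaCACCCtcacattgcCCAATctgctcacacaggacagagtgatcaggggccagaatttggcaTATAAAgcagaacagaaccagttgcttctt
Hbbl1, chr1:167650236-167650355, minus strand: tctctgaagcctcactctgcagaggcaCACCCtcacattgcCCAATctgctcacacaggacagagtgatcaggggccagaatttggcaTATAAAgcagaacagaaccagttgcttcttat
Hbb-bs, chr1:167631631-167631750, minus strand: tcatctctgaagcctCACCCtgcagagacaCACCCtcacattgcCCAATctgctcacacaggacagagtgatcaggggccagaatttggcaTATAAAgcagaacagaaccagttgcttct

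Over the aligned part of the 250 bases before the start, Hbbl1 and Hbb-b2 were 100% identical. Hbb-bs was 95.5% identical to Hbbl1 and 95.6% identical to Hbb-b2, and Hba-a1 was 96.4% identical to Hba-a2. Hbb stood apart, with 62.6% to 63.7% identity to the other beta members. A CCAAT match was found in 6 of 6 members and in 19.9% of all 33469 promoters of the table. The CACCC letters, the core of a box known to bind the erythroid factor Klf1 in beta globin promoters, were found in all 4 beta members, in no alpha member and in 29.5% of all promoters. TATAAA was found in 5 of 6 members and in 6.66% of all promoters. Hbb had CATAAA in its place, which 5.28% of all promoters hold. These matches describe the letters of the windows shown, and binding was not measured.

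The libraries held 5418230 to 42980793 estimated counts each, with a median of 21881769, and 22962 to 27876 genes above 0. Values are given in CPM, counts scaled to a common library total. A CPM is not corrected for transcript length, so levels of different globin genes are not ranked against each other here. A limit of 3 counts corresponds to 0.554 CPM in the smallest library, 0.137 CPM in the median library and 0.0698 CPM in the largest, and covers counting error only. Ribosomal RNA made up 0.220% to 1.39% of counts. The total, the number of genes above 0 and the ribosomal RNA share did not pass as correlates of Hba-a1 in 3 permutation tests (two-sided, 100000 permutations, all libraries). Pearson's r was 0.053 for the total, -0.033 for the genes above 0 and 0.025 for ribosomal RNA, with Spearman's rho of 0.055, -0.048 and 0.012. The smallest p among the 3 was 0.325 for r and 0.311 for rho, with adjusted p of 0.643 and 0.553. Within identifier blocks, the sets of at least 8 libraries whose identifiers start alike, these r ranged from -0.29 to 0.41, and leaving out the 2 libraries with the most extreme Hba-a1 gave 0.045, -0.045 and 0.028.

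In the globins 3 libraries stood apart. The lowest Hba-a1 values were 47.9 and 51.9 CPM, against 5th and 95th percentiles of 134.5 and 407 CPM over all libraries. These 2 libraries were also low in Hba-a2, with 17.1 and 17.7 CPM, in Hbb-bs, with 3.47 and 3.80 CPM, and in the erythroid enzyme gene Alas2, with 1.48 and 1.07 CPM. Their totals, 16902160 and 21474372 counts, lay within the range of the other libraries. The third library, brain 53, had an Hba-a1 of 221.9 CPM but 44.02 CPM of Hbb, and its summed beta CPM was 0.312 of its summed alpha CPM, the lowest ratio of all libraries. It also had the lowest ribosomal RNA share, 0.220%, whose part in its low beta globin was not tested.

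The 6 haemoglobin genes together took 0.00995% of counts in the lowest library, 0.0494% in the median library and 0.129% in the highest. In whole tissue, fewer red cells and less globin RNA per cell cannot be told apart. Hba-a1, an adult alpha chain gene, had 47.9 CPM in the lowest library, a median of 224.4 CPM and 566 CPM in the highest. Its mean level, log2 of CPM plus 1, was 7.84 ± 0.50 (SD over all libraries), and the 95th percentile was 3.01-fold the 5th. Hba-a2, the neighbouring alpha copy, ran from 17.1 CPM through a median of 84.1 CPM to 219.1 CPM, with a level of 6.44 ± 0.49 (SD over all libraries). The spread of the alpha copies on the log2 scale was about as wide in both, with the 2 libraries described above apart at the low end.

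Hbb, an adult beta chain gene, had 17.98 CPM in the lowest library, a median of 110 CPM and 380 CPM in the highest. Its level was 6.78 ± 0.69 (SD over all libraries), and the 95th percentile was 4.35-fold the 5th. Hbb-bs, the beta copy farthest along the cluster from Hbb, ran from 3.47 CPM through 18.4 CPM to 52.2 CPM, with a level of 4.299 ± 0.52 (SD over all libraries). Hbb was the more widely spread of these, and neither beta gene fell into separate levels by the mixture rule given below. The same library was lowest in Hba-a1, Hba-a2, Hbb and Hbb-bs, and another was highest in Hba-a1, Hbb and Hbb-b2.

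Hbb-b2 and Hbbl1 behaved otherwise. Hbb-b2 was under 3 counts in 48.5% of libraries, had a median of 3.99 CPM and reached 116.3 CPM. Hbbl1 was under 3 counts in 50 libraries and at 0 in 22 of them, had a median of 42.4 CPM and reached 152.1 CPM. Many libraries were therefore at or near the detection limit for one of these copies while others had it above 30 CPM. Their levels were 2.51 ± 2.57 for Hbb-b2 and 4.19 ± 2.42 for Hbbl1 (SD over all libraries).

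**Figure D1:**
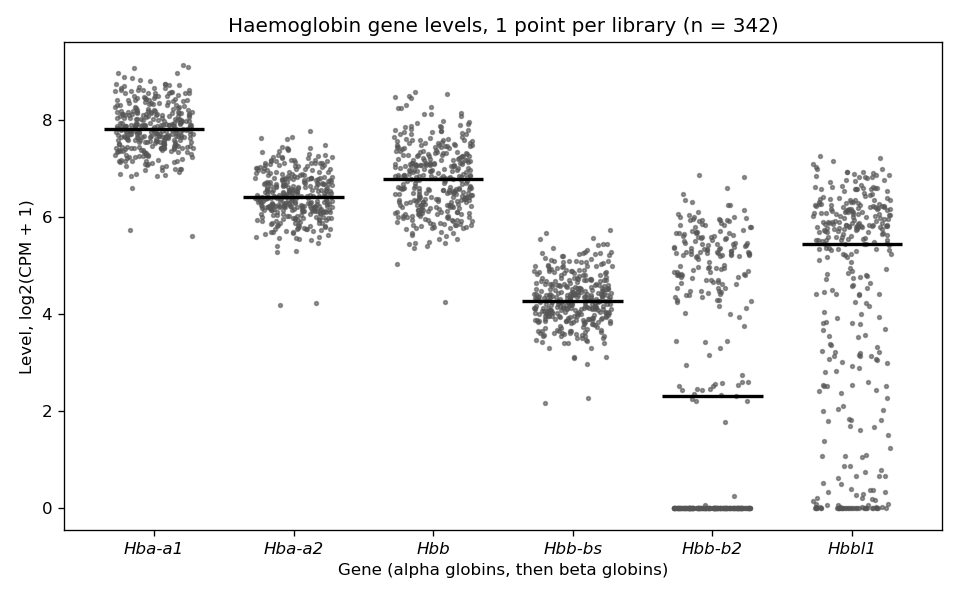
Level of each haemoglobin gene, log2(CPM + 1), with 1 point per library and a bar at the median. Hba-a1, Hba-a2, Hbb and Hbb-bs form single clouds with 2 libraries far below in the alpha genes, while Hbb-b2 and Hbbl1 reach down to 0 and fall into separate levels.

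The SD of each gene was set against a lowess trend of SD on mean level, drawn through the 16683 genes whose mean level reached 1. All 6 members had an SD at least 2 times the trend, as did 5.12% of genes tested. Since the genes were chosen for their spread, nothing is read from that count. The SD over the trend was 18.8 for Hbbl1, 13.02 for Hbb-b2, 8.19 for Hbb, 6.34 for Hba-a1, 5.70 for Hba-a2 and 4.15 for Hbb-bs. Ranked by this quotient among all genes tested, Hbbl1 came 3rd, Hbb-b2 7th, Hbb 27th, Hba-a1 40th and Hba-a2 51st, and Hbb-bs lower.

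The alpha pair kept a narrow ratio. The CPM of Hba-a1 was 2.20 to 3.38 times that of Hba-a2, with a median of 2.64, and the SD of the log2 ratio was 0.13 while each gene alone had an SD of 0.50 or 0.49. Across libraries, Pearson's r between the Hba-a1 and Hba-a2 levels was 0.97 and Spearman's rho 0.96 (permutation test, two-sided, smallest possible p = 1e-05, adjusted p = 2.69e-05 for r and 2.33e-05 for rho over 35 tests). Within identifier blocks r ranged from 0.94 to 0.98, and it was 0.96 with the 2 most extreme libraries left out. How reads that both near-identical copies could have given were divided is not stated in the labels, so the split between the copies is less certain than their sum.

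Hbb-bs, a gene of the other family on another chromosome, followed the alpha genes closely. Its level had r = 0.93 and rho = 0.91 with Hba-a1, and r = 0.93 and rho = 0.90 with Hba-a2 (all libraries, same permutation test, adjusted p = 2.69e-05 for each r and 2.33e-05 for each rho). Block by block, r with Hba-a1 was 0.88 to 0.97 and r with Hba-a2 was 0.85 to 0.95. Without the 2 most extreme libraries these r were 0.93 and 0.92. Over the whole family of 35 tests of 15 gene pairs, 16 passed an adjusted p of 0.05 by r. Those that passed include pairs with Hbb over all libraries, which pool the bands described next.

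Hbb did not follow Hba-a1 along a single line. Plotted against Hba-a1, the libraries lay in 3 parallel bands, so a single correlation over all of them is not given. The bands became plain when the CPM of Hbb was expressed as a percentage of the summed CPM of the 4 beta members, called the Hbb share here. A Gaussian mixture with a common SD, in which a further level had to improve the Bayesian information criterion by more than 10, hold at least 5% of libraries and lie at least 4 SD from its neighbour, put the Hbb share at 3 levels. This measure and its levels were chosen after the values were seen, so they are a description and carry no test.

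**Figure D2:**
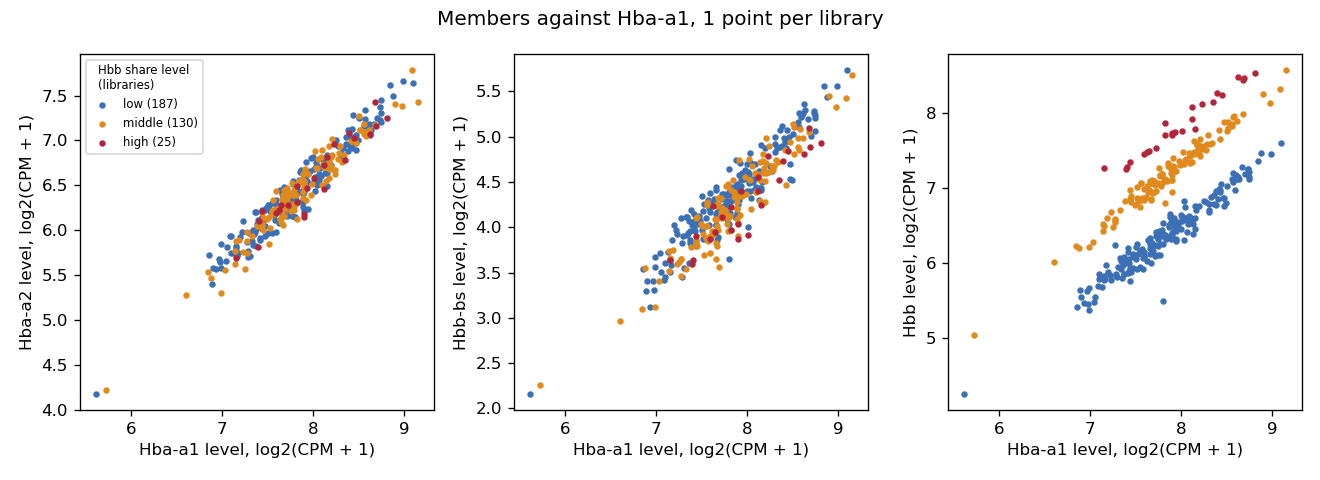
Level of Hba-a2, Hbb-bs and Hbb, log2(CPM + 1), against the level of Hba-a1, with 1 point per library coloured by Hbb share level. Hba-a2 and Hbb-bs follow Hba-a1 with the colours mixed, while Hbb lies in 3 parallel bands that hold 54.7%, 38.01% and 7.31% of libraries.

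The low level held 54.7% of libraries, with an Hbb share of 43.4% to 53.8% and a median of 48.3%. The middle level held 130 libraries, with a share of 64.96% to 71.9% and a median of 68.6%. The high level held 25 libraries, with a share of 80.8% to 85.6% and a median of 83.1%. No library lay between the levels, and the SDs within the levels were 1.53, 1.41 and 1.32 percentage points. All 3 levels were present in 5 of the 7 identifier blocks, and the high level was absent from 2.

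Relative to Hba-a1 the amount of Hbb stepped up from level to level, with a median ratio of Hbb to Hba-a1 CPM of 0.363 in the low level, 0.627 in the middle level and 0.900 in the high level. The ratios ran from 0.198 to 0.488, from 0.490 to 0.724 and from 0.781 to 1.08 without overlap. Hbb itself had median CPM of 80.7, 137.6 and 216.1, with wide overlap. Hba-a1 had median CPM of 221.9, 221.99 and 243.3 in the same libraries, and the ratio of Hba-a2 to Hba-a1 had medians of 0.379, 0.379 and 0.369. The alpha genes thus had overlapping values in the 3 sets of libraries.

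Within a level, Hbb followed Hba-a1 closely. Pearson's r was 0.97 in the low libraries, 0.98 in the 130 middle libraries and 0.98 in the 25 high libraries, and rho was 0.96, 0.97 and 0.98. These values are a description, since the levels were set with Hbb. The SD of the log2 ratio of Hbb to Hba-a1 over all libraries was 0.47.

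The higher the Hbb share level, the smaller was the median sum of Hbbl1 and Hbb-b2 relative to beta CPM and to Hba-a1. Together they made up a median of 40.002% of beta CPM where the Hbb share was low, 22.6% where it was middle and 10.2% where it was high, with ranges of 30.1% to 45.4%, 20.1% to 24.4% and 8.51% to 11.9%. Since shares of the 4 genes add up to the whole, part of this follows from the definition. The sum of Hbbl1 and Hbb-b2 relative to Hba-a1, which does not share that denominator, had medians of 0.301, 0.206 and 0.111. Its ranges were 0.177 to 0.371, 0.157 to 0.252 and 0.0866 to 0.129, so the low and middle ranges overlapped and the high range lay below both.

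**Figure D3:**
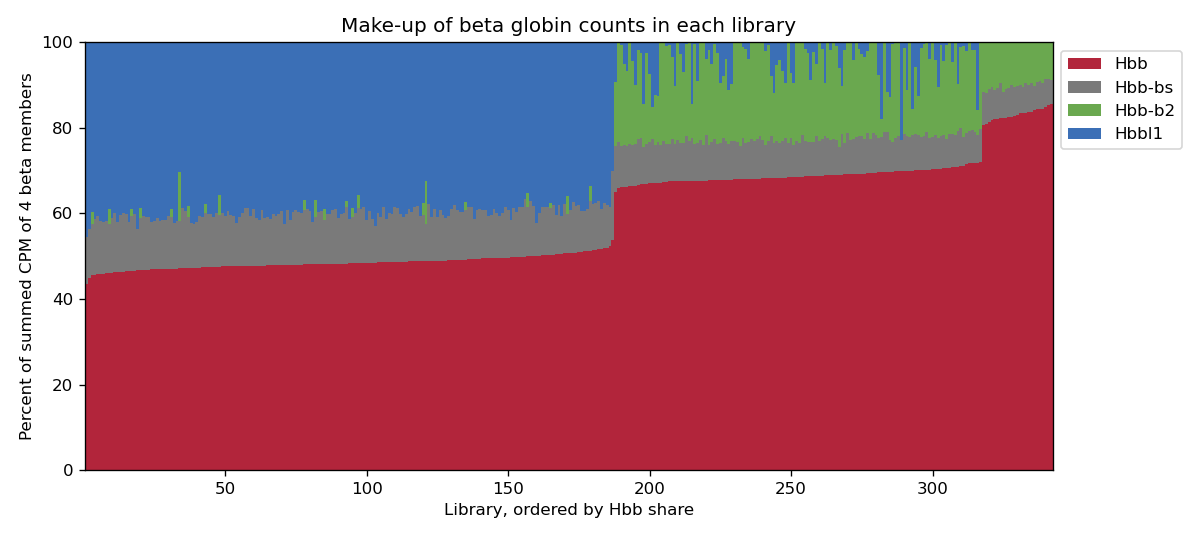
Percentage of the summed CPM of the 4 beta members taken by Hbb, Hbb-bs, Hbb-b2 and Hbbl1 in each library, with libraries ordered by Hbb share along the horizontal axis. The Hbb share jumps from at most 53.8% to at least 64.96% and again from at most 71.9% to at least 80.8%, and Hbbl1 gives way to Hbb-b2 at the first jump.

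Which of Hbbl1 and Hbb-b2 was counted changed sharply with the level. In the low level the beta CPM of this pair was almost all Hbbl1, with a median of 39.7% of beta CPM, while Hbb-b2 had a median of 0.0002%. In the high level it was almost all Hbb-b2, with a median of 10.2%, while Hbbl1 was listed at a median of 0. In the middle level Hbb-b2 had a median of 20.6% and Hbbl1 a median of 1.87%, but both spread widely, Hbbl1 reaching 22.8% and Hbb-b2 reaching 24.3%. Their sum in the middle level had an SD of 0.98 percentage points, against 4.86 for Hbbl1 and 4.88 for Hbb-b2 alone. The narrow spread of the sum follows largely from the narrow Hbb share that set the level, so nothing is read from it. How the authors' counting split reads between such alike copies is unknown here, and the part of that split in these shares was not tested.

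**Figure D4:**
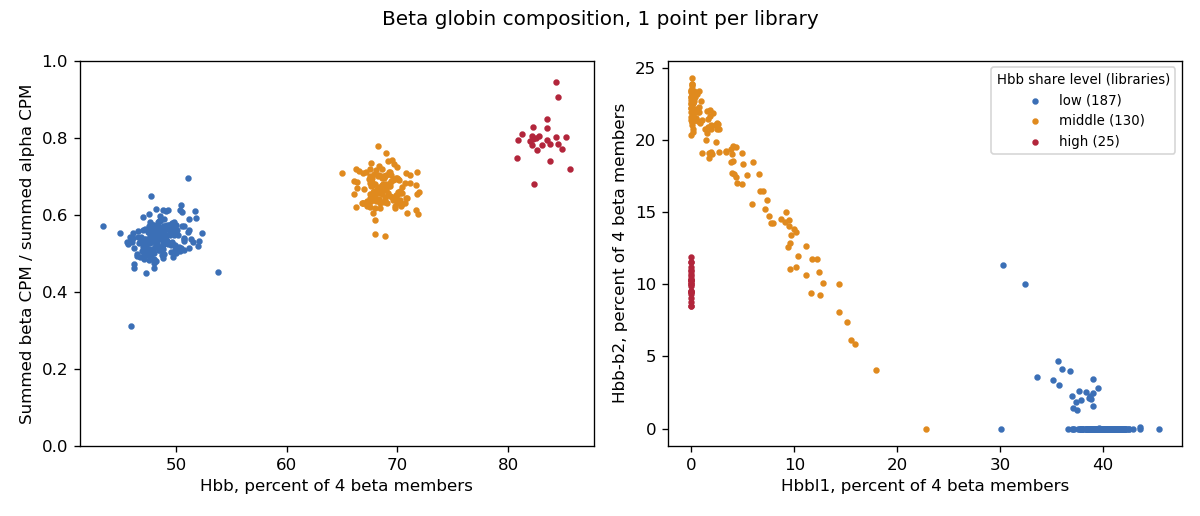
Left, the ratio of summed beta to summed alpha CPM against the Hbb share in percent; right, the Hbb-b2 share against the Hbbl1 share in percent, with 1 point per library coloured by Hbb share level. On the left the 3 levels are separate along the Hbb share, which defined them, and overlap in the ratio of beta to alpha CPM. On the right the 130 middle libraries run along a line near a sum of 22.6%, which the narrow Hbb share of that level largely fixes.

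By the same mixture rule applied to single genes, Hbb-b2 and Hbbl1 fell into separate levels, which is 2 of 6 members against 0.803% of the genes tested. The members were chosen for their spread, which favours separate levels, so nothing is read from that count. For Hbb-b2 the lowest level held 48.5% of libraries, all under 3 counts, with at most 0.185 CPM. Its middle level held 26 libraries at 2.42 to 12.5 CPM and its highest 150 libraries at 14.4 to 116.3 CPM. For Hbbl1 the lowest level held 78 libraries at up to 2.24 CPM, the middle level 54 libraries at 2.47 to 17.99 CPM and the highest 210 libraries at 19.9 to 152.1 CPM. The neighbouring levels of Hbbl1 nearly touch, so their borders are less firm than those of the Hbb share.

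The levels of the 2 copies were joined in a particular way. No library was in the lowest level of both. All 78 libraries in the lowest Hbbl1 level were in the highest Hbb-b2 level, and 99.4% of the libraries in the lowest Hbb-b2 level, all but 1, were in the highest Hbbl1 level. Only 21 libraries were in the highest level of both. Set against the Hbb share, 88.2% of the low libraries were in the lowest Hbb-b2 level and 99.5% in the highest Hbbl1 level. All 25 high libraries were in the highest Hbb-b2 level and the lowest Hbbl1 level.

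No other gene with separate levels sorted the libraries as these did. Among the genes with separate levels, the adjusted Rand index, which is 1 for the same sorting and near 0 for unrelated ones, was 0.479 between Hbbl1 and Hbb-b2. The next genes reached 0.055 with Hbbl1 (LOC120102367) and 0.037 with Hbb-b2 (LOC100361636). For the levels of the Hbb share the index was 0.724 with Hbb-b2 and 0.606 with Hbbl1, and Ino80e, a chromatin remodelling subunit gene, came next with 0.041. Hbb-b2 and Hbbl1 enter the denominator of the Hbb share, so part of their index is built in. Ino80e lies 23.2 megabases from Hbb on chromosome 1.

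Hbb-bs changed less with the level. Its share of beta CPM had medians of 11.6%, 8.66% and 6.67% in the low, middle and high libraries. Relative to Hba-a1 its medians were 0.0877, 0.0787 and 0.0723, with ranges of 0.0521 to 0.110, 0.0526 to 0.108 and 0.0549 to 0.0908 that overlap almost wholly. Within the levels its r with Hba-a1 was 0.94, 0.94 and 0.92.

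Hbb-b1, a further beta globin copy of the same cluster that is not among the 6 members, ran from 1.64 CPM through a median of 10.1 CPM to 31.98 CPM. It had not entered the Hbb share. Its CPM as a percentage of the summed CPM of the 4 beta members was 5.74% to 11.6% in the low level, 3.07% to 5.21% in the middle level and 0.921% to 1.71% in the high level, with medians of 7.47%, 3.84% and 1.26% and no overlap. That denominator holds Hbb, whose share set the levels. Relative to Hba-a1 its medians were 0.0563, 0.0357 and 0.0137, with ranges of 0.0392 to 0.0783, 0.0224 to 0.0520 and 0.00981 to 0.0191, so the low and middle ranges overlapped and the high range lay below both. Relative to Hba-a1, Hbb-b1 thus stood lowest where the Hbb share was high, and within a level it followed Hba-a1 with r of 0.94, 0.93 and 0.92. Reads shared with the other beta copies could enter this value, and their part was not tested.

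The ratio of summed beta to summed alpha CPM also differed between the Hbb share levels. Hbb set the levels and is part of the beta sum, so part of this difference is built in. The summed beta CPM was a median of 0.584 of the summed alpha CPM over all libraries, with a range of 0.312 to 0.944. By Hbb share level the medians were 0.539, 0.666 and 0.794, with ranges of 0.312 to 0.696, 0.546 to 0.778 and 0.681 to 0.944. The SD of the log2 ratio was 0.21 over all libraries and 0.11, 0.084 and 0.094 within the levels, while the summed alpha and beta CPM alone had log2 SDs of 0.50 and 0.54. Without brain 53 and the 2 libraries of lowest Hba-a1, 0 of the other libraries changed level. Because CPM is not corrected for length or for reads lost to copies outside the 6 genes, the ratio does not give the balance of chains in molecules.

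The other pairs with Hbb-b2 or Hbbl1 were tested within levels of those genes. Between these 2 genes, r was 0.28 in the 78 libraries of highest Hbb-b2 and lowest Hbbl1 level (permutation test, adjusted p = 0.0284). Of these, 50 had Hbbl1 under 3 counts. In the 24 libraries of middle Hbb-b2 and highest Hbbl1 level r was -0.47 (permutation test, adjusted p = 0.0462), and -0.21 without 2 libraries. In the other level pairs tested r was 0.087, -0.23 and -0.14 and did not pass. In the 150 libraries of the highest Hbb-b2 level, Hbb-b2 had r = 0.73 and rho = 0.70 with Hba-a1, and in the 210 libraries of the highest Hbbl1 level, Hbbl1 had r = 0.63 and rho = 0.72 with Hba-a1 (permutation tests, adjusted p = 2.69e-05 for r and 2.33e-05 for rho). Within blocks the first ranged from -0.12 to 0.96 and the second from 0.45 to 0.97, and with the 2 most extreme libraries left out they were 0.71 and 0.61. In the 54 libraries of the middle Hbbl1 level r with Hba-a1 was -0.024 (permutation p = 0.868, adjusted p = 0.993, rho -0.0048, block range -0.068 to 0.19, -0.0083 without 2 libraries). Hbbl1 thus moved with Hba-a1 in its highest level, and no relation was detectable at its middle level. These levels were cut from the values of Hbb-b2 and Hbbl1 themselves, which narrows their range within a level and can lower r. Nothing is therefore read from the difference between levels.

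Of 16 other globin names looked for, 10 were in the table. The embryonic and fetal-type genes were nearly absent: Hbg1 was at 0 in every library of the table, and Hbe1, Hbe2 and Hbz were above 0 in 11, 1 and 9 libraries, none with more than 2 counts. Hba-a3, a further alpha copy, had a median of 2.13 CPM and a highest value of 8.89 CPM, with 20 libraries at 0. Hbq1b, a theta globin gene, had a median of 0.308 CPM. Myoglobin, Mb, had a median of 0.0544 CPM and was under 3 counts in 79.2% of libraries. Neuroglobin, Ngb, ran from 4.38 through 7.27 to 12.5 CPM and cytoglobin, Cygb, from 49.2 through 60.7 to 73.3 CPM. Their SDs were 1.26 and 1.10 times the trend, slightly above it and smaller than those of the members.

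The 8 genes whose levels were most like that of Hba-a1, by Spearman's rho over all libraries, were led by Alas2. Alas2, the enzyme that starts haem synthesis in erythroid cells, had rho = 0.91 and r = 0.92, with 0.60 to 0.95 for rho within blocks. It ran from 1.07 through 4.43 to 11.4 CPM, and its ratio to Hba-a1 had medians of 0.0194, 0.0203 and 0.0184 in the low, middle and high Hbb share levels. Next came Ybx3, a Y-box nucleic acid binding protein gene, with rho 0.63 (block range 0.41 to 0.69), Hbb-b1 with 0.60 and Ucp2, a mitochondrial carrier gene, with 0.44 (block range 0.23 to 0.81). Hba-a3 had 0.38. The SNARE gene Stx16 had -0.35, the coenzyme A synthesis gene Pank2 -0.34 and the myelin gene Mbp 0.34. Over all genes tested the median absolute rho was 0.085 and the 95th percentile 0.229. These values are ranked descriptions over libraries that share tissue, kit and scaling.

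**Figure D5:**
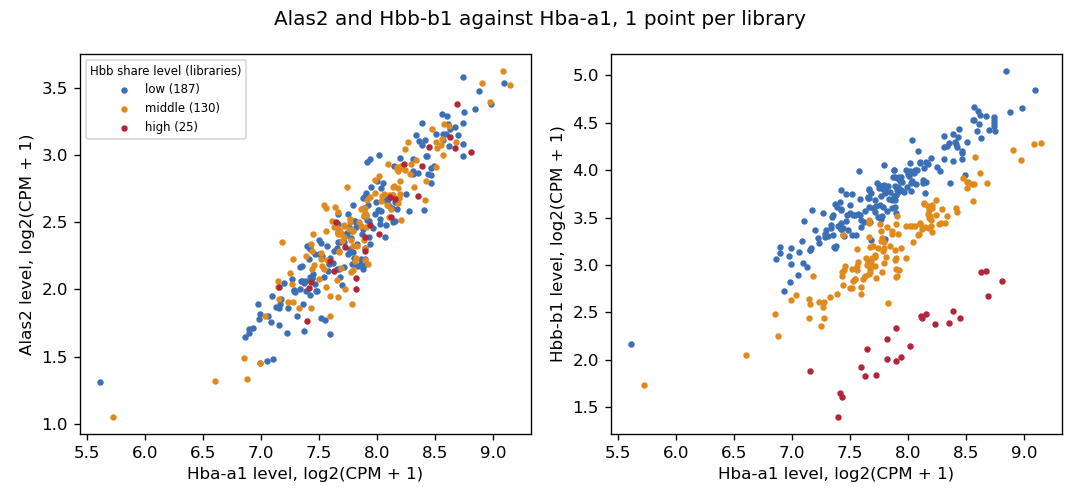
Level of Alas2 (left) and Hbb-b1 (right), log2(CPM + 1), against the level of Hba-a1, with 1 point per library coloured by Hbb share level. Alas2 follows Hba-a1 as a single cloud, while Hbb-b1 lies in bands in the reverse order of Hbb, highest in the libraries of low Hbb share and lowest in the 25 high libraries.

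The slope of each gene's level on the level of Hba-a1 was tested with limma over all genes. Of 16677 genes other than the members, 26.2% had an adjusted p under 0.05, 6.42% rising and 19.7% falling with Hba-a1, which is 1070 and 3293 genes. With median ratio scaling in place of the total the split was 2690 rising and 2758 falling, so the balance of directions rests on the scaling. The median slope was -0.0078 log2 units per log2 unit of Hba-a1. With Hbb as the measure in place of Hba-a1, 14 genes rose and 12 fell, so most calls below hold for Hba-a1 and not for Hbb. With the summed CPM of the 6 members as the measure, which includes Hba-a1, 735 rose and 2641 fell.

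Among erythroid genes, 5 of 18 were abundant enough to test, of which 1 rose and 1 fell, with a median slope of 0.0052 (-0.0043 without the 3 libraries that stood apart). With no level minimum 17 were tested, of which 7 rose and 1 fell, with a median slope of 0.028. Several of the genes so added lay near the limit of 3 counts. Alas2 rose, with a slope of 0.84 (SE 0.020, adjusted p = 4.05e-137, limma), and still rose with Hbb as the measure. Tfrc, the transferrin receptor gene, also used by brain endothelium and neurons, fell with a slope of -0.045 (adjusted p = 0.0265, limma), and did not pass with median ratio scaling (adjusted p = 0.0508, limma). Erythroid genes below the level minimum included Slc4a1, the anion exchanger of red cells, with a median of 0.478 CPM, and Ahsp, an alpha globin chaperone gene, with a median of 0.239 CPM. Gata1 and Rhag, a transcription factor gene and a membrane gene of the red cell lineage, were listed at 0 in 51.8% and 88.3% of libraries.

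Of the 8 haem synthesis genes shared by all cells, 0 passed in either direction (limma, median slope 0.0082). At an unadjusted p under 0.05, Ppox had a slope of -0.028 and Cpox and Urod each 0.021, and 3 of the 8 rose with median ratio scaling. Of 8 tested genes of haem and haemoglobin clearance, 3 rose and 1 fell, with a median slope of 0.025. Ftl1, the ferritin light chain, rose with 0.042 (adjusted p = 0.000234), Slc40a1, the iron exporter ferroportin, with 0.057 (adjusted p = 0.0133) and Hmox2, the constitutive haem oxygenase, with 0.022 (adjusted p = 0.0254, limma for each). Blvra, a biliverdin reductase, fell with -0.033 (adjusted p = 0.0401, limma) and did not pass with median ratio scaling (adjusted p = 0.184) or with block means removed (adjusted p = 0.0588). With median ratio scaling 5 of the 8 rose and 0 fell, and with Hbb as the measure 0 of the 8 passed.

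Markers of other blood cells that reached the level minimum did not pass. With no level minimum 1 of 14 leukocyte genes rose and 0 of 9 platelet genes passed. Of 6 tested leukocyte genes 0 passed (limma, median slope 0.0029), with a summed level of all 14 listed genes of 87.8 to 125.4 CPM, and of 2 tested platelet genes 0 passed (median slope -0.010), with a summed level of 5.13 to 13.7 CPM. At an unadjusted p under 0.05 the count was 1 leukocyte gene, the integrin gene Itgal (slope 0.057, adjusted p = 0.0789, limma). Itgal passed without the 3 libraries that stood apart (adjusted p = 0.0478) and with median ratio scaling (adjusted p = 0.0309). Ms4a1, a B cell gene, was listed at 0 in 69.01% of libraries, S100a8, a neutrophil gene, in 37.7% and Ppbp, a platelet gene, in 89.2%.

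Some markers of vessels and brain linings rose with Hba-a1, with slopes far below that of Alas2. Of 12 endothelial genes 6 rose, among them Cdh5, a junction cadherin, with a slope of 0.071 (adjusted p = 0.00177), and Slc2a1, the glucose transporter of brain vessels, with 0.073 (adjusted p = 0.00384). Of 8 mural genes 0 passed (lowest adjusted p 0.0952, Acta2), with 3 rising under median ratio scaling and 3 without the libraries that stood apart. At an unadjusted p under 0.05, Acta2 and Myh11 passed among the mural genes named. Of 10 choroid plexus genes 8 rose, of which Kl had the steepest slope, 0.11 (adjusted p = 0.00334). Of 10 meningeal fibroblast genes 5 rose, led by Col1a1, a fibrillar collagen, with 0.18 (adjusted p = 3.04e-05, limma for each). The summed level of the meningeal list ran from 158.3 to 505 CPM, that of the choroid plexus list from 597 to 1610 CPM and that of the endothelial list from 389 to 589 CPM. All of these calls were lost with Hbb as the measure, while with the sum of the 6 members 3 endothelial, 3 choroid plexus and 5 meningeal genes rose, and the part of the piece of tissue taken in them was not tested. The median slopes were 0.042 for the endothelial, 0.040 for the mural, 0.084 for the choroid plexus and 0.084 for the meningeal list, against -0.0078 over all genes tested. With median ratio scaling 9 of 12 endothelial, 9 of 10 choroid plexus and 8 of 10 meningeal genes rose.

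Among brain cells, 6 of 6 oligodendrocyte genes rose, with slopes of 0.041 to 0.078 and Mbp at 0.077 (adjusted p = 3.25e-07), and 3 of 6 astrocyte, 2 of 6 microglial and 2 of 8 neuronal genes rose. Without the 3 libraries that stood apart 1 microglial gene rose, and 2 neuronal genes rose and 1 fell. With median ratio scaling 6 of 6 oligodendrocyte, 6 of 6 astrocyte, 2 of 6 microglial and 3 of 8 neuronal genes rose. With Hbb as the measure 1 of the 6 oligodendrocyte genes rose and 0 of the astrocyte, microglial and neuronal genes passed. Of 9 reference genes 3 rose, Actb with a slope of 0.046 (adjusted p = 0.000138, limma), so slopes of this size were also found in genes used to scale samples. With median ratio scaling 5 of the 9 rose. Of 8 tested hypoxia-responsive genes 2 fell and 1 rose. The lactate exporter gene Slc16a3 fell with a slope of -0.11 (adjusted p = 0.000134), the angiogenic factor gene Vegfa fell with -0.099 (adjusted p = 0.000493), and Ndrg1, also a myelinating cell gene, rose with 0.055 (adjusted p = 0.000918, limma for each). Of the other globins tested, 2 of 4 rose, Hbb-b1 with 0.75 and Hba-a3 with 0.45 (adjusted p = 8.16e-32 and 6.08e-08, limma). The slopes of Ngb and Cygb were 0.041 and 0.023 (adjusted p = 0.194 and 0.0960), and Cygb passed with median ratio scaling (adjusted p = 0.00682, limma).

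The genes next to the clusters were looked at because cluster neighbours share the chromatin of the globin loci. Of 44 genes starting within 200 kb of a member, 14 were abundant enough to test, 13 on chromosome 10 and 1 on chromosome 1. With Hba-a1, 3 of them rose and 5 fell, beside 6.42% and 19.7% of all genes tested. With median ratio scaling 2 of the 5, Axin1 and Rhbdf1, no longer passed (adjusted p = 0.0969 and 0.149, limma), and Rhbdf1 also did not pass with block means removed (adjusted p = 0.0635) or without the 3 libraries that stood apart (adjusted p = 0.320). Hba-a3 and Hbb-b1 are among those that rose, with Fam234a at 0.040 (adjusted p = 0.0227). Pdia2, a protein disulfide isomerase gene, had the steepest fall of the 14, a slope of -0.13 (adjusted p = 0.00249). Nprl3, whose introns hold the main alpha globin enhancers in mammals, had a slope of -0.015 (adjusted p = 0.395), and Mpg, a DNA glycosylase gene beside it, -0.0055 (adjusted p = 0.858, limma for each). Apart from the globin copies, the slopes of these neighbours were small beside those of the globins.

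The labels name no batch, so the start of the library identifier was used as a stand-in, giving 7 blocks of at least 8 libraries. By limma's moderated F-test between blocks, 0 of 6 members passed an adjusted p of 0.05, and 0 passed an unadjusted p of 0.05, while 8.21% of genes tested, or 1370, passed. Without the 5% of libraries with fewest genes, 582 genes passed. The adjusted p was lowest for Hbbl1, 0.374, and highest for Hbb, 0.919. Block medians of Hba-a1 ran from 199.5 to 232.95 CPM and those of Hbb from 93.5 to 114.8 CPM. The low Hbb share level held 37.5% to 72.7% of the libraries of a block, the middle level 27.3% to 50% and the high level 0% to 12.5%.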

How the data were processed

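RNA of frozen brain hemispheres was extracted with TRIzol, enriched for polyA and made into directional NEBNext libraries, per the labels' protocols. Per the submitters' processing notes kallisto was used; how it was run, and how reads shared by gene copies were treated, is not stated. The authors deposited log2 values of estimated counts plus 1, not scaled for depth. They were turned back, scaled to CPM and set on the scale log2(CPM + 1). The labels name 352 samples in a single group, of which 342 are in the table, and every SD or correlation over all libraries has n = 342 (335 in the 7 identifier blocks); libraries are named brain with a number in accession order. The 10 samples without a column are not analysed here, and the labels say that 14 libraries were renamed after a mix-up. The median correlation between pairs of libraries was 0.991 and the highest 0.995, so none was treated as a duplicate. Of 38354 genes, 38278 matched the RefSeq table of GRCr8 by symbol.

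The members and lists were chosen with earlier results of these data known. The 16683 genes whose mean level reached 1 were fitted in limma 3.58.1 (R 4.3.3) with a mean-variance trend and Benjamini-Hochberg adjustment over all of them, with a threshold of 0.05. Correlations used scipy 1.17.1 and numpy 2.4.6, spread used statsmodels 0.14.6, promoters were aligned with Biopython 1.88, and the tests were checked on data with known answers. For the slope test these were the real levels with libraries shuffled and known slopes added, steeper than most slopes reported here. Named genes are the members, the other globins, and the 8 genes most like Hba-a1, without members and bare locus identifiers. Also named are the genes of most alike levels, up to 4 genes per list by the size of the limma statistic, and neighbours within 200 kb. Blood genes below the level minimum, and Ino80e, were named after their values were seen. No table of lengths or proteins was used, so the planned levels per length are not given. Alternatives were median ratio scaling, unscaled values as deposited, a pseudocount of 0.1, a level minimum of 3 or none, subtracting block means, leaving out the 5% of libraries with the fewest genes, covariates, and Hbb as the measure. Added after seeing the data were the sum of the 6 members as the measure, Hbb-b1 in the denominator of the Hbb share, a log ratio, and exclusion of the 14 renamed or the 3 outlying libraries.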

Additional observations from a re-analysis of the deposited data

How the results depend on the processing

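The 3 levels of the Hbb share were found under all 5 alternatives tried for them, with 0 libraries changing level. The deposited values, which are not scaled for depth, moved most results by construction: 3 members in place of 6 had an SD at least 2 times the trend, 3 library measures in place of 0 passed with Hba-a1, 16650 genes in place of 4363 passed for the slope on Hba-a1 (16650 rising, 0 falling), and 6012 genes in place of 1370 differed between identifier blocks. With these values the slope turned positive for Tfrc (0.33), Blvra (0.33), Slc16a3 (0.29), Vegfa (0.28), Pgap6 (0.34), Axin1 (0.35), Pdia2 (0.24), Luc7l (0.34), Rhbdf1 (0.34), Pank2 (0.31) and Stx16 (0.30). With Hbb as the measure, its 3 bands pooled, 26 genes passed and the slope of Hbb-b1 was -0.013. A level minimum of 3 left 1 member with separate levels, because Hbb-b2 falls below it. Without the 5% of libraries with fewest genes, 582 genes differed between blocks. Of the other values for single genes, pairs and member counts, 1032 stayed the same, 55 newly passed, 72 grew weaker and 7 moved. For slopes and correlations, the same means the same side of the threshold, and a sign could change where neither value passed. Weaker holds slopes and correlations that no longer passed, and SDs that fell below 2 times the trend. Moved holds mean levels that shifted by at least their SD, and counts of levels or members that changed. No paired analysis was possible because all samples form a single group and their numbers come from accession order. Depth limits Hbb-b2, Hbbl1 and the blood genes below the level minimum, where values under 3 counts cannot be told from 0.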
